A study of Mus musculus with 18 samples.

Results

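The enzymes and chaperones that modify and crosslink collagen were followed as 10 genes out of the 38243 listed in each library: P4ha1, P4ha2, P4hb, Plod1, Plod2, Serpinh1, Crtap, Fkbp10, Lox and Loxl2. They were chosen by symbol as the main steps between a newly made procollagen chain and a crosslinked fibril, and all 10 passed the filter on low values, which left 11469 genes. The RNA came from the mandible of mouse embryos at embryonic day 16.5 (E16.5), where laser capture microdissection, the cutting of named tissue from a frozen section with a laser, had collected mandibular bone, Meckel's cartilage (MC, the rod of cartilage in the embryonic jaw) and condylar cartilage (the growth cartilage of the jaw joint). Of the 6 embryos, all female and of strain C57BL/6 by the labels (C57BL6/J in the methods of the study), 3 were heterozygous for the S252W mutation of the fibroblast growth factor receptor gene Fgfr2 (Fgfr2+/S252W, a model of Apert syndrome) and 3 were littermates without it (Fgfr2+/+). Each of the 6 combinations of tissue and genotype had 3 libraries. No other allele or agent is named for any group. The sample codes point to 1 library of each tissue per embryo, and no driver that would limit the mutation to some cells is named, so an effect within a captured cell and one of its surroundings cannot be told apart.

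Collagen chains are modified while they enter the endoplasmic reticulum (ER). Prolyl 4-hydroxylase, made of a catalytic subunit (P4ha1 or P4ha2) and protein disulfide isomerase (P4hb), hydroxylates prolines and so stabilises the triple helix, lysyl hydroxylases (Plod1, Plod2) prepare lysines for crosslinks, and chaperones (Serpinh1, Crtap, Fkbp10) accompany the folding chains. Outside the cell, the copper enzymes Lox and Loxl2 oxidise lysines so that neighbouring molecules can be joined, and loss of several of these genes causes brittle bones in people.

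Totals ran from 8218548 to 15585778 counts per library, with a median of 10581032, and the 10 genes together took 0.372 to 0.491% of the counts in bone, 0.0483 to 0.14% in MC (0.0769% at most without Fgfr2+/+ replicate 1) and 0.435 to 0.653% in condylar cartilage. The smallest count of any of the 10 in a library was 47 (Loxl2) and the largest 21905 (Lox). The marker genes of the tissues were checked first. Osteoblast markers summed to 16900 to 34580 CPM (counts scaled to a common library total) in bone, and 7 chondrocyte markers to 30990 to 38130 CPM in condylar cartilage. In MC the chondrocyte sum was 1960 to 8737 CPM in 5 libraries but 360.1 CPM in the library labelled MC, Fgfr2+/+ replicate 1, within the range of the bone libraries (89.1 to 387 CPM). In condylar cartilage, the replicates numbered 3 of both genotypes had osteoblast sums of 19580 (Fgfr2+/S252W) and 12360 CPM (Fgfr2+/+) against 5030 to 6154 CPM in the other 4. The comparisons of tissues were repeated without these libraries.

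The promoter windows of P4ha1 and P4ha2 are shown because these genes differed most between the cartilages, and that of Crtap because it differed least. The letters ACGTG and GCGTG, the core that hypoxia-inducible factors bind, were searched on both strands, and each match is in capitals (CACGT and CACGC are the same letters on the other strand). The windows are RefSeq sequences on GRCm38.p6, 250 bases before to 50 after the annotated start, read along the gene. P4ha1 lies at chr10:59323046-59323345 on the plus strand, P4ha2 at chr11:54100674-54100973 on the plus strand and Crtap at chr9:114390663-114390962 on the minus strand. The RefSeq start of P4ha2 lies inside the gene as the count files place it, downstream of their start, and positions here are counted from the RefSeq start.
P4ha1: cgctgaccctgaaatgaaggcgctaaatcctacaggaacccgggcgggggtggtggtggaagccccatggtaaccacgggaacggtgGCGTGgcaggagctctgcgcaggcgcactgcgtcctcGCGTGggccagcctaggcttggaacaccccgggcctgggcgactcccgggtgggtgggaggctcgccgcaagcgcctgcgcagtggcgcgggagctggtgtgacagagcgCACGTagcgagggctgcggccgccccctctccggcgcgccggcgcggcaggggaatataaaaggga
P4ha2: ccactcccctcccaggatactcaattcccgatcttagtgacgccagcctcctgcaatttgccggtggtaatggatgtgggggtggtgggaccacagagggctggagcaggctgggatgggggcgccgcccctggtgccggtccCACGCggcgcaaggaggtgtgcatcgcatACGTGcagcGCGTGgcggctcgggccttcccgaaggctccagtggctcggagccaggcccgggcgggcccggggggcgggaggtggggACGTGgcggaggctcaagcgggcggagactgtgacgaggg
Crtap: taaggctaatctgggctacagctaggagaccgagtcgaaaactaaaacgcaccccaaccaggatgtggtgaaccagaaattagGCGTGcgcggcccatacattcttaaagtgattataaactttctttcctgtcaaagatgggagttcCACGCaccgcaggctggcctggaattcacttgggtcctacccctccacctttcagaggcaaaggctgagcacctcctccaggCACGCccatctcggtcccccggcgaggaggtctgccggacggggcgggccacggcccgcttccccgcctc
Matches began at bases -163, -126 and -16 from the start of P4ha1, at -107, -78, -69 and 11 of P4ha2, and at -167, -102 and -20 of Crtap, and none overlapped another. Among the 6 of the 10 genes with a window in the table, P4hb had 3 matches, Plod1 had 2 and Serpinh1 had 1. Of all 32851 windows, 43.8% held at least 1 match and 8.93% held 3 or more, while 4 of the 6 held 3 or more. The GC content of the 6 windows was 58.3 to 70.3%, and the other windows were not matched for it, so the shares are a description. Plod2, Fkbp10, Lox and Loxl2 are not shown.

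To see where in the jaw this machinery was most expressed, the tissues were compared over the 6 embryos. All 10 genes were higher in condylar cartilage than in MC, by 1.69-fold (Crtap) to 17.6-fold (P4ha2), and all 10 were higher in bone than in MC, by 1.40-fold (Plod1) to 5.26-fold (P4ha2). Between bone and condylar cartilage the set divided: 7 genes were lower in bone, Lox was higher in bone by 2.71-fold, and Crtap and Fkbp10 passed no threshold. These comparisons used limma with the embryo as a block and Benjamini-Hochberg adjustment over all genes tested. In the same fits 57.7% of all genes were called between condylar cartilage and MC (28.6% higher, 29.1% lower), 49.5% between bone and MC (24.9% higher, 24.6% lower) and 47% between bone and condylar cartilage (24.3% higher and 22.7% lower in bone). The median log2 difference of the 10 genes was 2.29, 1.6 and -1.2 in these comparisons, where the median over all genes was -0.00773, -0.00244 and -0.0027. Other contents also differed by tissue. The RNA Gm42418 took 24.07 to 39.4% of counts in MC, 5.59 to 9.33% in bone and 10.88 to 20.18% in condylar cartilage, TMM factors were 0.49 to 1.09, 1.2 to 1.48 and 0.90 to 1.27, and fibroblast and perichondrium markers summed to 1356 to 2189, 1847 to 2887 and 608 to 860 CPM. Bone held the most markers of osteoclasts (842 to 2248 CPM, against 59.7 to 247 in MC and 14.3 to 51.4 in condylar cartilage), macrophages (109 to 267, 27.4 to 93.0 and 3.21 to 10.6 CPM) and endothelium (161.5 to 228, 21.0 to 88.0 and 5.82 to 23.6 CPM), and red blood cell markers summed to 313 to 1503, 106 to 475 and 33.2 to 222 CPM. Hypertrophic chondrocyte markers summed to 4.41 to 29.2 CPM in MC, 703 to 1866 in bone and 1108 to 4334 in condylar cartilage. Mitochondrial genes took 26.27 to 38.14% of counts in MC, 20.43 to 35.95% in bone and 19.45 to 27.7% in condylar cartilage. The part of these contents in the tissue differences was not tested. In captured tissue, more cells that express a gene and more RNA per cell cannot be told apart.

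**Figure D1:**
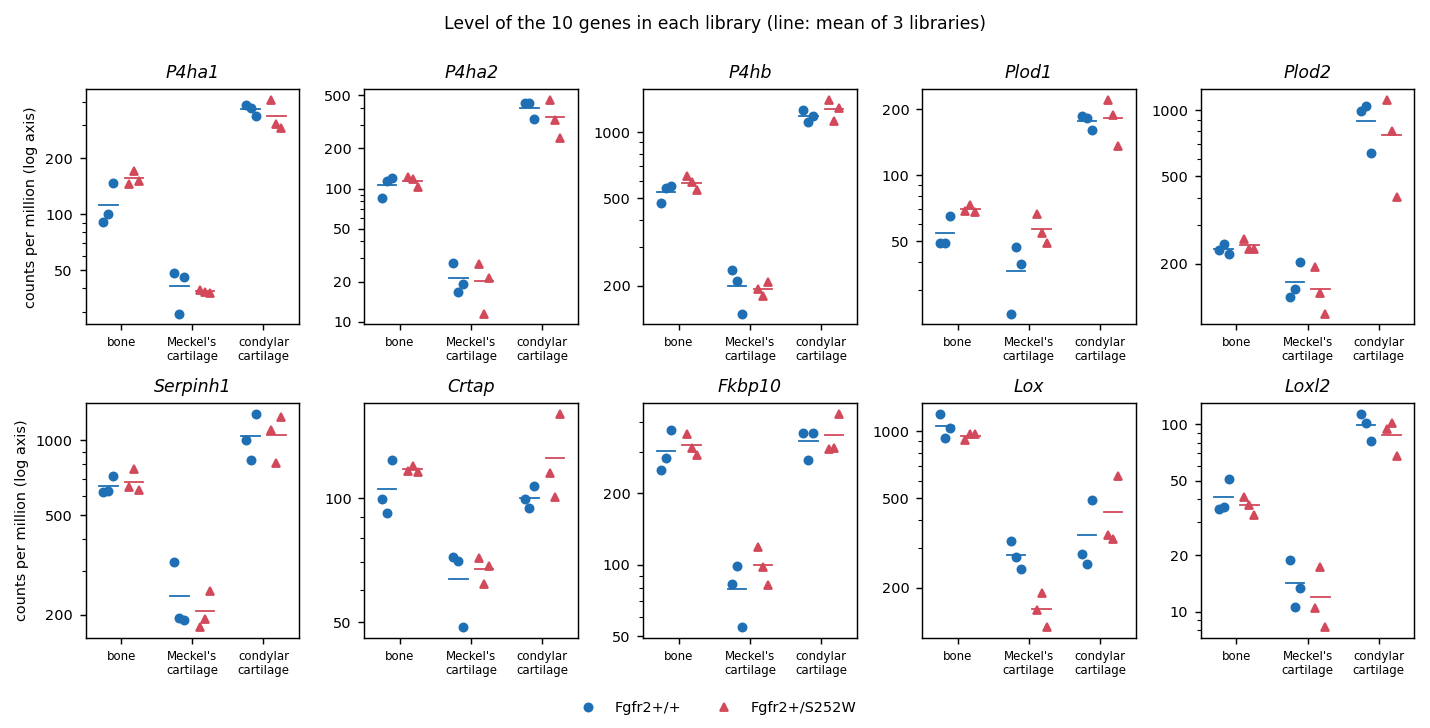
Level of each of the 10 genes in all 18 libraries, in CPM on a log axis, by tissue, with circles for Fgfr2+/+ and triangles for Fgfr2+/S252W and a line at the mean of 3 libraries. In 9 of the 10 panels the highest point is in condylar cartilage, while Lox stands between 915 and 1196 CPM in bone and reaches 627 CPM in condylar cartilage.

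The prolyl 4-hydroxylase subunits gave the clearest order, condylar cartilage over bone over MC. The catalytic subunit P4ha1 (chr10:59323296-59373304 on mm10, plus strand) had a lowest, median and highest level of 288, 355 and 411 CPM in condylar cartilage, 90.5, 146 and 171 CPM in bone and 29.3, 38.8 and 48.1 CPM in MC. No library of one tissue reached into another. The differences were 3.12 ± 0.15 on the log2 scale (SE, n = 6 embryos) between condylar cartilage and MC (adjusted p = 4.74e-11), 1.71 ± 0.16 between bone and MC (adjusted p = 3.09e-07) and -1.41 ± 0.13 between bone and condylar cartilage (adjusted p = 1.32e-07), the last a 2.66-fold lower level in bone.

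P4ha2 (chr11:54100095-54131662, plus strand), the other catalytic subunit, had the largest log2 differences to MC of the 10. Its lowest, median and highest levels were 240.0, 386 and 464 CPM in condylar cartilage, 85.3, 116 and 121 CPM in bone and 11.5, 20.2 and 27.5 CPM in MC. Again the tissues did not overlap. The log2 differences were 4.14 ± 0.18 between condylar cartilage and MC (adjusted p = 1.72e-11), 2.40 ± 0.20 between bone and MC (adjusted p = 8.65e-08) and -1.74 ± 0.14 between bone and condylar cartilage (adjusted p = 2.91e-08). P4hb (chr11:120560298-120573253, minus strand), which also works as a general protein disulfide isomerase, kept the same order at higher levels, with 1112 to 1409 CPM in condylar cartilage, 478 to 631 CPM in bone and 149 to 237 CPM in MC. Its log2 differences were 2.66 ± 0.11 (condylar over MC, adjusted p = 1.67e-11), 1.52 ± 0.12 (bone over MC, adjusted p = 3.73e-08) and -1.13 ± 0.11 (bone against condylar, adjusted p = 2.54e-07).

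The lysyl hydroxylases were highest in condylar cartilage and differed less between bone and MC. Plod2 (chr9:92542223-92608428, plus strand), which hydroxylates lysines at the ends of the collagen molecule, had a lowest, median and highest level of 402, 900.2 and 1114 CPM in condylar cartilage, 221, 234 and 259.7 CPM in bone and 119, 151 and 204 CPM in MC. The condylar libraries lay far above the other 12, and bone only slightly above MC. The log2 difference was 2.33 ± 0.16 between condylar cartilage and MC (adjusted p = 2.51e-09), -1.73 ± 0.16 between bone and condylar cartilage (adjusted p = 8.48e-08) and 0.60 ± 0.17 between bone and MC (adjusted p = 0.00644, higher in 6 of 6 embryos). That last call was lost within the Fgfr2+/+ embryos alone (0.52, adjusted p = 0.101), where 32% of all genes were called.

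Plod1 (chr4:147909753-147936767, minus strand), which acts on lysines of the helix, had levels of 136, 184 and 221 CPM (lowest, median, highest) in condylar cartilage, 49.0, 66.6 and 73.2 CPM in bone and 23.3, 47.9 and 66.5 CPM in MC. Bone and MC overlapped, and the lowest value belonged to the MC library with few chondrocyte markers. Condylar cartilage was higher than MC by 2.02 ± 0.15 (adjusted p = 7.94e-09) and higher than bone by 2.89-fold (bone minus condylar -1.53 ± 0.14, adjusted p = 7.75e-08). The bone to MC difference of 0.48 ± 0.17 (adjusted p = 0.0235) was the weakest of the 10 and did not hold without the embryo of that library (0.37, adjusted p = 0.0789), in the Fgfr2+/S252W embryos alone (0.30, adjusted p = 0.321, with 35.8% of all genes called), with sample quality weights (0.44, adjusted p = 0.0827) or without any 1 of these 5 libraries. The values were 0.33 (adjusted p = 0.0935) without MC replicate 1 of Fgfr2+/+ and 0.41 (adjusted p = 0.0666) without bone replicate 3 of Fgfr2+/+. Among Fgfr2+/S252W they were 0.46 (adjusted p = 0.0547) without MC replicate 2, 0.48 (adjusted p = 0.0524) without bone replicate 2 and 0.42 (adjusted p = 0.0706) without bone replicate 3.

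Among the chaperones, the collagen-specific Serpinh1 (heat shock protein 47) had the same order of tissues as the hydroxylases with a smaller difference between bone and condylar cartilage, whereas Crtap and Fkbp10 exceeded MC in both other tissues without a call between them. Serpinh1 (chr7:99345375-99353230, minus strand) had levels of 810.1, 1052 and 1278 CPM (lowest, median, highest) in condylar cartilage, 619, 641 and 764 CPM in bone and 178, 192 and 326 CPM in MC. All 3 tissues were separate. It was lower in bone than in condylar cartilage by only 1.54-fold (-0.63 ± 0.14, adjusted p = 0.00143) and higher in condylar cartilage than in MC by 4.73-fold (2.24 ± 0.15, adjusted p = 1.24e-09) and in bone than in MC by 3.06-fold (1.62 ± 0.15, adjusted p = 2.2e-07).

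Crtap (chr9:114375134-114390675, minus strand), the partner of the prolyl 3-hydroxylase P3h1, stood at 94.5, 104 and 160.5 CPM (lowest, median, highest) in condylar cartilage, 92.2, 116 and 124 CPM in bone and 48.6, 69.5 and 71.8 CPM in MC. Bone minus condylar cartilage was 0.00077 on the log2 scale with a 95% interval from -0.27 to 0.27 (adjusted p = 0.996), and 4 of 6 embryos had more in bone. Bone and condylar cartilage overlapped. Its differences to MC were 0.76 ± 0.14 in bone (adjusted p = 0.000276) and 0.76 ± 0.13 in condylar cartilage (adjusted p = 0.000112), both without overlap. Fkbp10 (chr11:100415697-100424824, plus strand), an ER prolyl isomerase that binds procollagen, stood at 278, 335 and 435 CPM in condylar cartilage, 252.3, 301 and 370.0 CPM in bone and 54.4, 90.7 and 118 CPM in MC. Bone and condylar cartilage again overlapped (-0.13, 95% interval -0.44 to 0.18, adjusted p = 0.483), while both exceeded MC by 3.53-fold in bone (adjusted p = 2.29e-07) and 3.87-fold in condylar cartilage (adjusted p = 1.67e-08). Counting ignored strand and 7.47% of the exon bases of Fkbp10 also belong to Nt5c3b, so reads from that stretch cannot be told apart.

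The crosslinking enzymes went opposite ways between bone and condylar cartilage. Lox (chr18:52516069-52529867, minus strand), the main lysyl oxidase of fibrillar collagen, had a lowest, median and highest level of 915, 971 and 1196 CPM in bone, 255, 338 and 627 CPM in condylar cartilage and 133, 215 and 323 CPM in MC. Bone was clear of both cartilages, and the cartilages overlapped. The log2 difference was 2.25 ± 0.17 between bone and MC (adjusted p = 2.9e-08), 1.44 ± 0.16 between bone and condylar cartilage (adjusted p = 1.53e-06) and 0.81 ± 0.17 between condylar cartilage and MC (adjusted p = 0.000476), the last in 4 of 6 embryos. Within the Fgfr2+/+ embryos the difference between the cartilages was 0.24 (adjusted p = 0.441), where 46% of all genes were called, and without the condylar libraries numbered 3 it was 0.49 (adjusted p = 0.00209).

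Loxl2 (chr14:69609068-69693698, plus strand), a related oxidase that also crosslinks the collagen IV of basement membranes, had the lowest median CPM and mean FPKM of the 10 in every tissue, and followed the hydroxylases in its order. It had 67.7, 97.7 and 114 CPM (lowest, median, highest) in condylar cartilage, 32.9, 36.7 and 51.0 CPM in bone and 8.23, 11.9 and 18.8 CPM in MC. No tissue overlapped another. The log2 differences were 2.84 ± 0.18 (condylar over MC, adjusted p = 8.57e-10), 1.58 ± 0.20 (bone over MC, adjusted p = 6.93e-06) and -1.26 ± 0.14 (bone against condylar, adjusted p = 1.03e-06). Of the exon bases of Loxl2, 9.42% overlap other annotated genes.

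**Figure D2:**
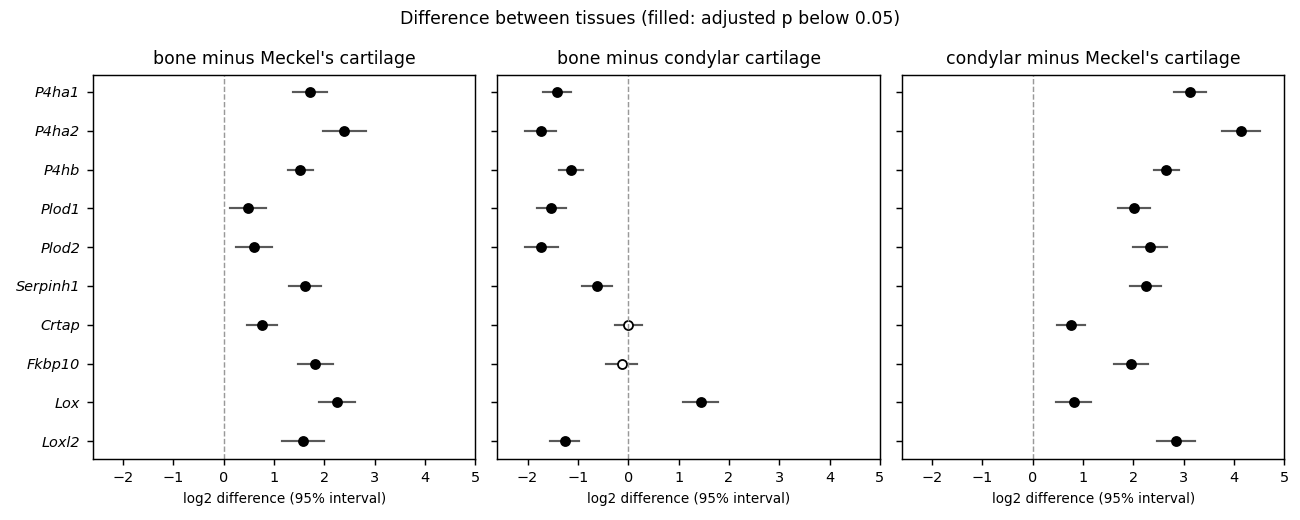
Log2 difference between tissues for each of the 10 genes with its 95% interval, filled where the adjusted p was below 0.05. All points of bone minus MC and of condylar minus MC lie above 0, while in bone minus condylar cartilage only Lox lies well above 0, Crtap and Fkbp10 lie near it and the other 7 lie between -0.63 and -1.74.

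In all, 9 of the 10 genes had no overlap between bone and MC (Plod1 overlapped), 9 of 10 none between condylar cartilage and MC (Lox overlapped) and 8 of 10 none between bone and condylar cartilage, where the shares over all genes were 24.9, 29.5 and 31.9%. Libraries of MC spread more than the others: the biological coefficient of variation was 0.38 in MC, 0.162 in bone and 0.258 in condylar cartilage, while the fit shares 1 spread per gene, so errors of differences to MC may be too small. With quality weights that let each library have its own spread, 10 of 10 were called between condylar cartilage and MC, where 52.2% of all genes were called, and 9 of 10 between bone and MC (38.9% of all genes). Leaving out the embryo with the unusual MC library gave 10 calls for condylar cartilage and 9 for bone against MC (56.6 and 49.3% of all genes), and leaving out the condylar libraries numbered 3 gave 10 calls against MC and 8 against bone (53.8 and 42.7% of all genes).

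Compared per length, as counts divided by exon length and depth (FPKM), the order of the genes also differed among tissues. In bone Serpinh1 led with 274 ± 24.7 FPKM (SD, n = 6), followed by Lox at 208 ± 21.4 and P4hb at 197 ± 17.9, which overlapped. Fkbp10 at 120 ± 17.4 FPKM and the overlapping pair of Crtap (66.5 ± 7.4) and Plod2 (64.1 ± 3.6) came next, and P4ha2 (39.5 ± 5.0), P4ha1 (32.6 ± 7.7), Plod1 (16.6 ± 2.8) and Loxl2 (11.9 ± 2.0) closed the order. In condylar cartilage P4hb (431 ± 39.6 FPKM) and Serpinh1 (429 ± 81.3) led within their spread, Plod2 followed at 224 ± 73.5, and Lox (80.7 ± 29.6) ranked 7 of 10, overlapping P4ha1 (85.1 ± 11.7) and Crtap (67.4 ± 14.6). P4ha2 (134 ± 31.6 FPKM) and Fkbp10 (132 ± 21.5) stood between these groups, and Plod1 (47.8 ± 7.7) and Loxl2 (28.6 ± 5.0) came last. In MC Serpinh1 (90.9 ± 23.5 FPKM) and P4hb (68.6 ± 10.5) led, Lox (45.7 ± 15.1), Plod2 (43.1 ± 8.8) and Crtap (39.1 ± 5.4) overlapped behind them with Fkbp10 (34.5 ± 8.3), and Plod1 (12.4 ± 3.9), P4ha1 (9.68 ± 1.62), P4ha2 (7.37 ± 2.23) and Loxl2 (4.01 ± 1.28) were lowest, each overlapping its neighbour.

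Ratios within a library, which do not depend on how libraries are scaled, put the related enzymes side by side. They are described without a test. P4ha2 relative to P4ha1 in FPKM was 1.23 to 1.74 in condylar cartilage, 1.01 to 1.68 in bone and 0.442 to 1.02 in MC, and 1 MC library (1.02) lay within the range of bone. Loxl2 relative to Lox was 0.159 to 0.595 in condylar cartilage, 0.0434 to 0.0729 in bone and 0.0564 to 0.135 in MC. The condylar ratios lay above all 12 others, and the lowest of them (0.159 and 0.245) were the replicates numbered 3. Plod2 relative to Plod1 was 2.99 to 5.75 in condylar cartilage, 3.24 to 5.08 in bone and 2.45 to 6.10 in MC (5.23 at most without the library with few chondrocyte markers), with no separation of tissues.

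**Figure D3:**
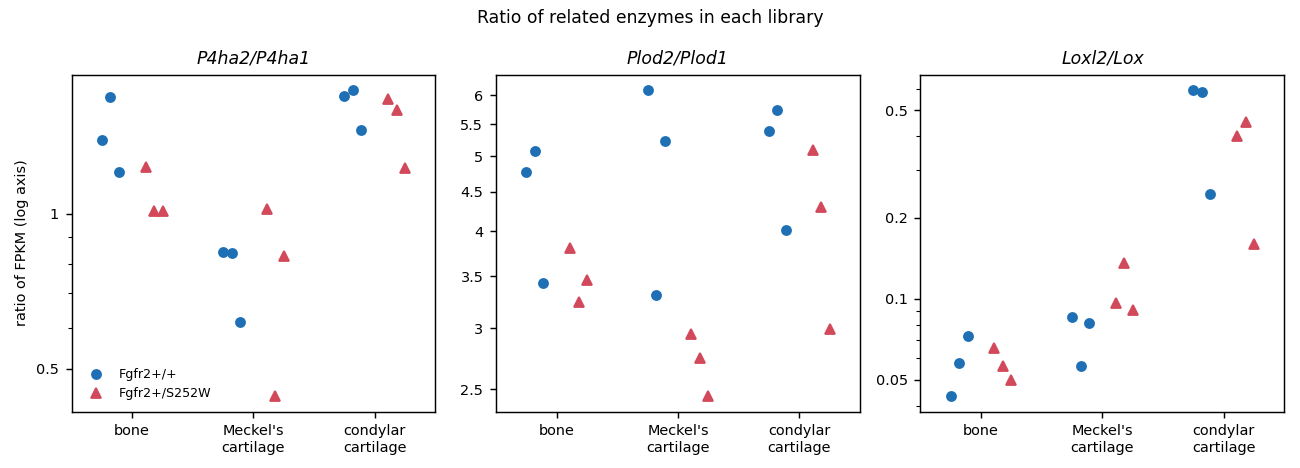
Ratio of FPKM within each library for 3 pairs of related enzymes, on a log axis, by tissue, with circles for Fgfr2+/+ and triangles for Fgfr2+/S252W. The Loxl2 to Lox ratio is 0.159 to 0.595 in condylar cartilage and at most 0.135 elsewhere, and the Plod2 to Plod1 ratio in MC is 2.45 to 2.95 in Fgfr2+/S252W against 3.31 to 6.10 in Fgfr2+/+.

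Within condylar cartilage the libraries differed most in Plod2 and Lox. Plod2 was 995, 1039 and 639 CPM in replicates 1 to 3 of Fgfr2+/+ and 1114, 805 and 402 CPM in those of Fgfr2+/S252W. Lox was 282, 255 and 490.4 CPM in Fgfr2+/+ and 345, 330.2 and 627 CPM in Fgfr2+/S252W. In both genotypes the replicate numbered 3, which had the highest osteoblast marker sum, had the least Plod2 and the most Lox, and the part of those markers was not tested. The same libraries had the highest sums of 3 hypertrophic chondrocyte markers (3319 and 4334 CPM against 1108 to 2286 CPM in the other 4), the lowest hypoxia response sums within their genotype (2047 and 3420 CPM) and the highest Gm42418 shares (20.18 and 20.13%). Serpinh1 (1278 and 1240 CPM, against 810.1 to 1101 in the others) and Crtap (107 and 160.5 CPM) were highest within their genotype in the same replicate. So was Fkbp10, though only just in Fgfr2+/+ (360.04 CPM, against 359.57 in replicate 1). P4ha1 (337 CPM in Fgfr2+/+ and 288 in Fgfr2+/S252W), P4ha2 (332 and 240), Plod1 (161 and 136) and Loxl2 (81.6 and 67.7) were lowest there. P4hb was neither highest nor lowest. Without these libraries the bone minus condylar difference was -2.04 for Plod2 and 1.76 for Lox, larger in size than with them.

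The similarity of the 10 genes over the 18 libraries is a description, since the libraries share 3 tissues. P4ha1, P4ha2, P4hb and Loxl2 had Pearson correlations of 0.958 to 0.982 with each other on log2 CPM, Plod1 and Plod2 0.929, and Crtap and Fkbp10 0.936. Lox correlated at -0.03 with Plod1, 0.02 with Plod2 and at most 0.693 (Crtap) with any. Outside the 10, the genes most like P4ha1 were P3h1 (0.984) and Gorasp2 (0.981), with P4ha2 (0.982) between them. For P4ha2 these were Scin (0.988), Gorasp2 (0.987) and Uso1 (0.984), for P4hb Fkbp9 (0.987), Sec61a1 (0.986) and Bsg (0.984), and for Serpinh1 Rpn2 (0.983), Mef2c (0.98) and Stt3a (0.979). For Plod1 they were Dop1b (0.972), Tmem214 (0.969) and Plod3 (0.964), and for Plod2 Sptlc2 (0.984), Papss2 (0.981) and Btbd3 (0.98). For Crtap they were Nptn (0.94), Col24a1 (0.938) and Farp2 (0.938), for Fkbp10 Dazap2 (0.979), Galnt3 (0.972) and Cdkn1a (0.965), for Lox Ano1 (0.954) and Mmp13 (0.951), and for Loxl2 Ccdc12 (0.982), Ssr1 (0.978) and Plekha1 (0.978).

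Other genes of collagen modification were read from a list of 16. Over all genes, 28.6% were called higher and 29.1% lower in condylar cartilage than in MC. In bone 24.9% were called higher and 24.6% lower than in MC, and 24.3% higher and 22.7% lower than in condylar cartilage. The same shares apply to the lists that follow. Between condylar cartilage and MC, 12 were higher and 2 lower. The highest were P3h2 (log2 5.59), a prolyl 3-hydroxylase, and Colgalt2 (5.41), which adds galactose to hydroxylysine, and the lower ones were P4ha3 (-3.46), a further catalytic subunit, and Loxl1 (-2.33), an oxidase of elastic fibres. Between bone and MC 9 were higher, led by Fkbp7 (2.81) and Ppib (2.29), and 4 lower, led by Loxl1 (-1.81) and P4ha3 (-1.65). Between bone and condylar cartilage 11 were lower in bone, led by Colgalt2 (-5.29) and P3h2 (-3.81), and 3 higher, led by P4ha3 (1.81) and Fkbp7 (0.96). Against MC, P4ha3 and Loxl1 went the opposite way to P4ha1, P4ha2 and Loxl2.

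The enzymes were then set beside their substrate. Of 10 fibrillar collagen genes tested, 9 were higher in condylar cartilage than in MC, led by Col2a1 (3.73) and Col11a1 (2.92), and Col3a1 was lower (-0.90). Between bone and MC 6 were higher, led by Col1a2 (3.55) and Col24a1 (3.47), and 3 lower, led by Col2a1 (-3.46) and Col27a1 (-2.85). Bone and condylar cartilage divided 5 against 5, with Col1a2 (2.31) and Col1a1 (2.30) highest and Col2a1 (-7.18) and Col27a1 (-4.84) lowest in bone. The 10 enzymes and chaperones summed to 965 to 1097 FPKM in bone, 318 to 430.4 in MC and 1466 to 1859 in condylar cartilage, which per 100 FPKM of fibrillar collagen was 11.3 to 24.0, 13.9 to 32.7 and 18.1 to 28.0. Without the MC library with few chondrocyte markers the highest value in MC was 23.7, and without the condylar libraries numbered 3 the lowest in condylar cartilage was 24.0. The 2 highest ratios in bone, 18.7 and 24.0, were Fgfr2+/+ replicates 1 and 2, where fibrillar collagen was 5166 and 4021 FPKM against 7887 to 9746 in the other 4 bone libraries while the enzymes stood at 966 and 965 FPKM.

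Genes that act on procollagen later or carry it out of the ER gave a similar picture against MC. Of 10 tested of 12, 8 were higher in condylar cartilage, among them the procollagen peptidase enhancer Pcolce2 and the collagen-binding Sparc (2.36), and Adamts2 (-1.62) and Bmp1 (-0.94), which cleave propeptides, were lower. In bone 9 were higher than in MC, among them Pcolce2 and Sparc (3.28), and Adamts3 was lower (-0.66). Pcolce2 had 0 to 10 counts in the MC libraries, 167 to 343 in bone and 942 to 1364 in condylar cartilage, so no fold against MC is given for it. Bone against condylar cartilage gave 5 higher, led by Adamts2 (3.20) and Pcolce (1.92), and 4 lower, led by Adamts3 (-2.84) and Pcolce2 (-2.80). The N-propeptidases Adamts2 and Adamts3 thus lay on opposite sides.

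Hypoxia response genes and general ER folding genes were counted because hydroxylases use oxygen and are known targets of hypoxia-inducible factor, and because P4hb and Serpinh1 work in the ER. Of 16 hypoxia response genes tested, 12 were higher in condylar cartilage than in MC and none lower, among them Bnip3 (4.84) and Egln3. Against bone, 11 were higher in condylar cartilage, led by Bnip3 (bone minus condylar -3.39) and the glucose transporter Slc2a1 (-3.04), while Ankrd37 (1.31) and Ndrg1 (1.11) were higher in bone. Between bone and MC 10 were higher, among them Egln3 and Bnip3 (1.46), and Pfkfb3 was lower (-0.68). Egln3 had 0 to 4 counts in the MC libraries, 59 to 139 in bone and 6 to 112 in condylar cartilage, and no fold is given for it. Of 15 ER folding genes, 14 were higher in condylar cartilage than in MC, led by Sdf2l1 (3.12) and the chaperone Hspa5 (2.80), 12 were lower in bone than in condylar cartilage, led by Hyou1 (-2.16) and Sdf2l1 (-2.03), and 11 were higher in bone than in MC, led by Hspa5 (1.62) and Hsp90b1 (1.54). 

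The effect of the mutation was asked in each tissue separately, with 3 Fgfr2+/S252W against 3 Fgfr2+/+ libraries. None of the 10 genes passed an adjusted p of 0.05 in bone, MC or condylar cartilage by limma, and none did by edgeR or DESeq2. Over all genes limma called 0.0872% for bone, 0% for MC and 0% for condylar cartilage, while edgeR called 4, 90 and 0 genes and DESeq2 18, 423 and 3. At an unadjusted p below 0.05 (limma) were P4ha1 in bone, Plod1 and Lox in MC and none in condylar cartilage, where the shares over all genes were 8.13, 15.4 and 3.06%. Fgfr2 itself carries a base change that counts do not show, so its level does not check the genotype. Its log2 difference was -0.02 (bone), -0.31 (MC) and 0.31 (condylar cartilage), with adjusted p of 0.995, 0.553 and 0.998.

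In bone P4ha1 had 145, 171 and 150.3 CPM in the 3 Fgfr2+/S252W libraries and 90.5, 100.3 and 147 CPM in the Fgfr2+/+ libraries. The groups overlapped, because replicate 3 of Fgfr2+/+ lay among the mutants. The log2 difference was 0.49 ± 0.18 (adjusted p = 0.472, limma), and 0.49 (adjusted p = 0.2) with all the bone libraries fitted alone. It passed with sample quality weights (0.58, adjusted p = 0.0148), where 5.14% of all genes were called, and in the bone libraries alone without that replicate (0.69, adjusted p = 0.00478), where 11.4% of all genes were called, but not in the fit of all tissues without it (0.71, adjusted p = 0.0633). The replicate left out was chosen after its values were seen.

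Plod1 in bone had 68.8, 73.2 and 68.1 CPM in Fgfr2+/S252W and 49.0, 49.0 and 65.1 CPM in Fgfr2+/+. All mutant libraries were above all littermates, as is the case for 20.4% of all genes in either direction. The log2 difference of 0.37 ± 0.20 (adjusted p = 0.675, limma) did not pass, nor did 0.37 (adjusted p = 0.228) with all the bone libraries fitted alone. Without replicate 3 of Fgfr2+/+ it was 0.50 (adjusted p = 0.0195) in bone alone and 0.51 (adjusted p = 0.32) in the fit of all tissues. Other contents of the bone libraries moved with genotype or with replicate 3 of Fgfr2+/+. Skeletal muscle markers summed to 208, 195 and 22.4 CPM in Fgfr2+/+ and 1.18, 7.40 and 22.5 CPM in Fgfr2+/S252W. Mitochondrial genes took 35.95, 34.82 and 20.43% of counts in Fgfr2+/+ against 23.41 to 23.61% in Fgfr2+/S252W. Red blood cell markers summed to 1250 to 1503 against 313 to 595 CPM and osteoclast markers to 842 to 1125 against 1618 to 2248 CPM. Osteoblast markers summed to 22220, 16900 and 34580 CPM in Fgfr2+/+ and 28090 to 30300 CPM in Fgfr2+/S252W, with replicate 3 of Fgfr2+/+ again apart from the other Fgfr2+/+ libraries, and Gm42418 took 8.57 to 9.33% against 5.59 to 6.49% of counts. Fibroblast and perichondrium markers (2128 to 2887 CPM in Fgfr2+/+, 1847 to 2120 CPM in Fgfr2+/S252W), macrophage markers (109 to 140.5 against 194 to 267 CPM) and chondrocyte markers (89.1 to 238 against 286 to 387 CPM) did not overlap between the genotypes either. The part of these contents in P4ha1 and Plod1 was not tested.

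The other 8 genes in bone had log2 differences from -0.14 (Loxl2) to 0.17 (Crtap). The narrowest of their 95% intervals, that of P4hb, ran from -0.16 to 0.44, and the widest, that of Plod2, from -0.50 to 0.61. These intervals use 1 spread per gene for all tissues, and bone libraries spread least. In the bone libraries alone the SE of each of these genes was smaller. There Plod2 was 0.05 ± 0.12 (SE), against 0.06 ± 0.27 in the fit reported, and P4hb 0.13 ± 0.13, against 0.14 ± 0.14. The fit reported does not exclude differences inside these intervals.

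In MC Lox had 159, 189 and 133 CPM in Fgfr2+/S252W and 323, 274 and 242 CPM in Fgfr2+/+. All mutant libraries were below all littermates, which 13.4% of all genes show in either direction. The log2 difference was -0.82 ± 0.25 (adjusted p = 0.154, limma). Across the alternatives that left out 1 library it stayed between -0.92 and -0.69, and without the MC library with few chondrocyte markers it was -0.69 (adjusted p = 0.307).

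Plod1 in MC had 66.5, 54.5 and 49.0 CPM in Fgfr2+/S252W and 23.3, 46.9 and 39.4 CPM in Fgfr2+/+, again without overlap. The log2 difference was 0.77 ± 0.26 (adjusted p = 0.186, limma), and without the library with few chondrocyte markers, which held the lowest value, it was 0.42 (adjusted p = 0.506). Chondrocyte markers summed to 8737, 1960 and 2014 CPM in Fgfr2+/S252W and 360.1, 3005 and 3111 CPM in Fgfr2+/+. Among the other marker sets, osteoclast markers (59.7 to 74.2 CPM in Fgfr2+/S252W, 87.7 to 247 CPM in Fgfr2+/+) and macrophage markers (60.7 to 93.0 against 27.4 to 52.0 CPM) did not overlap between the genotypes in MC. Fibrillar collagens, the substrate of these enzymes, summed to 9057 to 14600 CPM in Fgfr2+/S252W and 7893 to 8935 CPM in Fgfr2+/+, also without overlap. The part of these contents in Lox and Plod1 was not tested. The remaining 8 genes ranged from -0.39 (Loxl2) to 0.36 (Fkbp10), with adjusted p from 0.476 to 0.957. Leaving out 1 library, Loxl2 ranged from -0.62 to -0.08, the latter without the library with few chondrocyte markers, and Fkbp10 from 0.14 to 0.53.

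In condylar cartilage the 10 genes ranged from -0.28 (Plod2) to 0.33 (Lox), and all had an adjusted p of 0.998. No gene separated the genotypes, where 9.77% of all genes did. The interval of P4hb ran from -0.21 to 0.40 and that of Lox from -0.15 to 0.81.

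**Figure D4:**
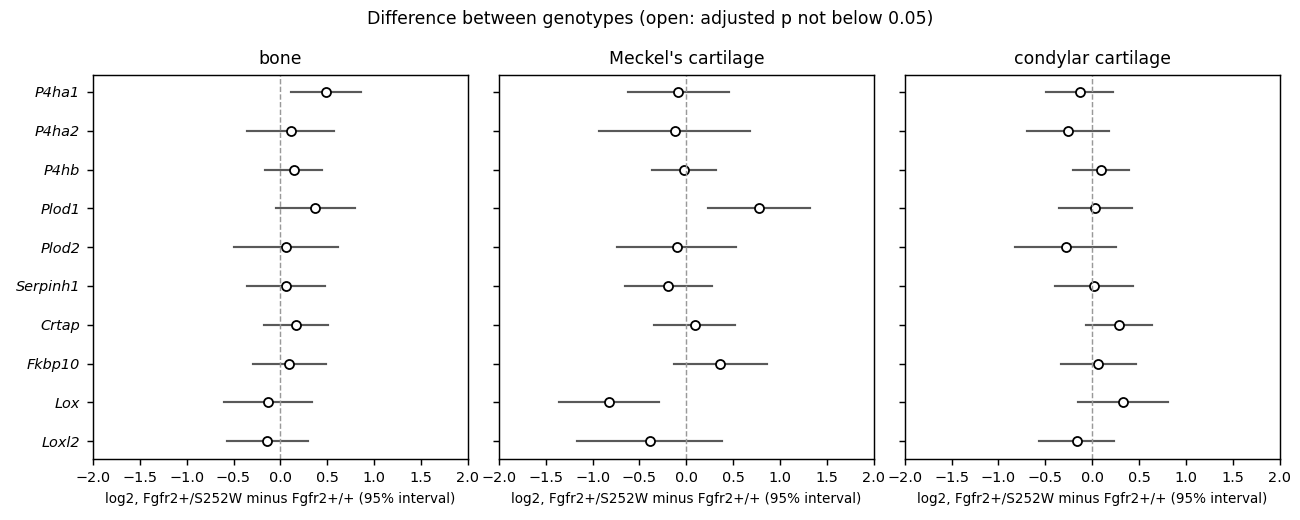
Log2 difference between Fgfr2+/S252W and Fgfr2+/+ for the 10 genes in each tissue with its 95% interval; all points are open because no adjusted p was below 0.05. The intervals that do not cross 0 are those of P4ha1 in bone (0.12 to 0.86) and of Plod1 (0.23 to 1.32) and Lox (-1.35 to -0.29) in MC.

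Whether the effect of the mutation differed between tissues was tested in the fit with the embryo as a block. None of the 10 genes passed for any pair of tissues by limma, edgeR or DESeq2, and limma called 0.0349% of all genes for bone against MC, 0% for bone against condylar cartilage and 0% for condylar cartilage against MC. At an unadjusted p below 0.05 were 0, 1 and 2 of the 10 genes, where the shares over all genes were 9.12, 2.86 and 10.4%. For Lox the effect in condylar cartilage minus that in MC was 1.15 ± 0.34 (adjusted p = 0.244, limma), for Plod1 it was -0.70 ± 0.30 (adjusted p = 0.438), and for P4ha1 the effect in bone minus that in condylar cartilage was 0.63 ± 0.26 (adjusted p = 1, limma). Leaving out 1 library, these differences ranged from 0.80 to 1.5 for Lox, -0.92 to -0.39 for Plod1 and 0.41 to 0.86 for P4ha1. Among the other lists, none of the genes of collagen modification, procollagen processing, fibrillar collagens, hypoxia response or ER folding was called between genotypes in any tissue by limma.

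The ratios of related enzymes were also read by genotype. In MC the Plod2 to Plod1 ratio was 2.95, 2.74 and 2.45 in Fgfr2+/S252W and 6.10, 3.31 and 5.23 in Fgfr2+/+, and the Loxl2 to Lox ratio was 0.0964, 0.135 and 0.0911 in Fgfr2+/S252W and 0.0855, 0.0564 and 0.0811 in Fgfr2+/+. Neither ratio overlapped between genotypes, and neither was tested. They are 2 of 9 readings of a ratio in a tissue, they use the Plod1 and Lox values given above, single genes do not overlap in 13.4% of cases in MC, and the highest value, 6.10, is the library with few chondrocyte markers. In bone the P4ha2 to P4ha1 ratio was 1.23, 1.01 and 1.01 in Fgfr2+/S252W and 1.39, 1.68 and 1.2 in Fgfr2+/+, which overlapped.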

How the data were processed

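RNA from laser-captured mandibular bone, MC and condylar cartilage was amplified (NuGEN Ovation) and sequenced as paired reads. Reads were aligned to mm10 (STAR), and the deposited values are counts per gene, which the authors made with featureCounts 1.5.0-p1 on Ensembl release 75 without regard to strand and without reads of several places. Here the counts were used as deposited. A gene was kept (11469 were) when its FPKM exceeded 1 in 50% of the 18 libraries or more, and the counts were scaled by TMM and fitted with voom and limma 3.58.1 in R 4.3.3. The differences between genotypes used all 6 groups, and those between tissues and the interactions added the embryo as a block, inferred from the sample codes. As a random block in the fit of the 6 groups, the embryo gave a correlation of -0.0247. The values thus showed no likeness of the libraries assigned to 1 embryo beyond tissue and genotype. P-values were adjusted by Benjamini-Hochberg over all genes, with 0.05 as the threshold. CPM and FPKM use TMM-scaled totals. edgeR 4.0.16, DESeq2 1.42.0, other filters and scalings and left-out libraries were alternatives. The pipeline was tested on simulated data, where comparisons with MC made more false calls than the threshold allows when each tissue had its own spread. The number of libraries and the depth set the precision. The 10 genes and the lists were chosen with earlier results of these data known. Named from each list were, per tissue comparison, up to 2 called genes with the largest difference each way, and per gene the 3 most correlated genes, of which 1 is not reported here. The embryo of the MC library with few chondrocyte markers, the condylar libraries numbered 3 and, in bone alone, replicate 3 of Fgfr2+/+ were left out in alternatives chosen after seeing the data. Columns with the gene positions were read as annotation. Ero1a, on the ER folding list, was not analysed here.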

Additional observations from a re-analysis of the deposited data

Results flagged for a closer look

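Of 30 sets of 6 libraries (10 genes in 3 tissues), 1 held a library far from the others by the ratio of its gap to the whole range. Crtap in condylar cartilage was 160.5 CPM in Fgfr2+/S252W replicate 3 against 94.5 to 115 CPM in the other 5. Chance alone marks about 1 set in 20.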

How the results depend on the processing

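The number of the 10 genes called between genotypes in bone was 0 in the fit reported, 1 with sample quality weights and 2 in the bone libraries alone without replicate 3 of Fgfr2+/+, and every other count of the 10 genes stayed within 1.5 times. Of the values per gene, 1259 kept direction and side of the threshold, 10 lost and 3 gained a call, and 41 changed sign, none of them called. Crtap in bone minus condylar cartilage was -0.00197 with edgeR, -0.0275 with DESeq2, -0.0241 with DESeq2 size factors, -0.0295 with filterByExpr, -0.00371 without mitochondrial genes and Gm42418 and -0.0613 in Fgfr2+/S252W embryos alone, and Fkbp10 there was 0.00123 without the condylar libraries numbered 3. Quality weights turned the genotype difference of Fkbp10 (-0.0112) and Serpinh1 (-0.100) in condylar cartilage and of P4hb in MC (0.0715), and bone alone without replicate 3 of Fgfr2+/+ that of Loxl2 (0.0248).

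Leaving out 1 library at a time, the values that changed sign ranged from -0.0736 to 0.0749 for Crtap in bone minus condylar cartilage. Between genotypes in bone they ranged from -0.0260 to 0.254 for Fkbp10, -0.237 to 0.0416 for Loxl2, -0.0447 to 0.206 for P4ha2 and -0.0272 to 0.13 for Serpinh1. In MC they ranged from -0.0756 to 0.226 for Crtap, -0.277 to 0.0917 for P4ha1, -0.412 to 0.192 for P4ha2, -0.210 to 0.145 for P4hb, -0.295 to 0.0779 for Plod2 and -0.329 to 0.106 for Serpinh1. In condylar cartilage they ranged from -0.0901 to 0.151 for Fkbp10, -0.128 to 0.217 for Plod1, -0.609 to 0.122 for Plod2 and -0.133 to 0.191 for Serpinh1. The cause was not tested.

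Over all genes, the calls between genotypes in bone were 10 in the fit reported, 4 with edgeR, 18 with DESeq2, 21 with filterByExpr, 53 with no filter, 141 in the bone libraries alone, 1370 in those without replicate 3 of Fgfr2+/+, 589 with quality weights and 0 to 91 without 1 library, and in MC 0, 45 with no filter, 90 with edgeR, 423 with DESeq2 and 0 to 138 without 1 library. The calls between bone and MC were 5672, 3668 in Fgfr2+/+ embryos alone and 13018 with no filter, those between condylar cartilage and MC 6616 and 10514 with no filter, and those between bone and condylar cartilage 5388 and 3416 in Fgfr2+/S252W embryos alone. The interaction of bone and MC called 4 genes and 68 with DESeq2, that of condylar cartilage and MC 0 and 50, and that of bone and condylar cartilage 0 and 2. With no filter on low values the median of all genes moved by more than 0.1, to -0.394 in bone minus MC, -0.405 in condylar minus MC, -0.175 in bone minus condylar cartilage, 0.154 between genotypes in MC and -0.13 in the interaction of bone and MC, and all 10 genes were still called higher against MC. Same-numbered libraries of the 2 genotypes had correlations of -0.152 to 0.277 over all genes and not every pair deviated together, so the numbers were not taken to pair them, although the condylar libraries numbered 3 (0.277) shared the marker levels given above. The replicate block left 0 of the 10 genes called in each tissue. Over all genes in bone it gave 7 calls in the fit of 18 libraries, against 10 without it. In the bone libraries alone it gave 554, against 141 without it. The fit without the embryo block called 10 of the 10 genes between bone and MC and 8 between bone and condylar cartilage. Between condylar cartilage and MC it called 10. Of all 11469 genes, 5853, 5603 and 6449 were called in these comparisons. Counts of 47 to 202 for Loxl2 and 51 to 296 for P4ha2 in MC limit what could be seen there.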
